A study of Mus musculus with 9 samples.

Results

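The comparison of ligase-dead RING1B cells with wild-type cells rested on 6 of the 9 arrays of the series, chosen by the genotype in the sample titles: 3 arrays of wild-type E14Tg2a cells (WT) and 3 of Ring1B I53A/I53A cells (I53A). E14Tg2a is a male mouse embryonic stem (ES) cell line of the strain 129P2/OlaHsd, the parent of both mutant lines, kept here on gelatin in serum with leukaemia inhibitory factor and without drug treatment. In I53A cells both alleles of the RING1B gene, Rnf2, were rewritten by 2 rounds of gene targeting, which exchanged an isoleucine at the E2 contact of the protein for alanine. Exon 3 also received silent restriction sites and a loxP site stayed in the following intron. The other 3 arrays held Ring1B -/- cells (KO), made by removing exon 3 from both alleles. They entered the model as one more group and are given below beside the I53A values only. The study's methods call the 3 samples of a group biological replicates, and the sources used here describe no second, independently derived line of the I53A genotype. A difference may therefore belong to the cell line and not to its mutation, and the p-values measure the spread between replicates of 1 line.

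Polycomb repressive complex 1 (PRC1) is built around RING1B or its paralogue RING1A, which are RING-type E3 ligases that place ubiquitin on histone H2A. In ES cells it keeps developmental regulators silent together with Polycomb repressive complex 2 (PRC2), which methylates histone H3, and a variant form of PRC1 that holds E2F6, MGA and MAX silences genes of the germline. PRC1 can also compact chromatin without its ligase, and the I53A protein is built into the complex but cannot engage its E2, so that the contrast was meant to separate ligase activity from the presence of the protein.

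Levels are quantile-normalised log2 signals of single-colour Agilent arrays, on which 1 unit is a 2-fold difference. Each change is a log2 fold change of I53A against WT (log2FC) from limma, with its standard error (SE) and its p-value adjusted over all probes tested. Calls needed an adjusted p below 0.05 and more than a 2-fold change. The gene lists below were chosen with earlier results of these data known. Their counts and shares are therefore descriptions and no test of the lists. The share of tested probes that stood well above background was 45.4% to 53.7% on the WT arrays and 51.4% to 57.5% on the I53A arrays, and it and the 3 arrays per group limited the precision. The ES cell markers Pou5f1, Nanog and Utf1 had mean log2 signals above 11 in both groups, with a log2FC of 0.23, -0.01 and 0.19. Nanog was measured on 2 arrays of each group, the spots of the others being outliers. The remaining ES cell markers all had a negative log2FC: Esrrb -1.41, Sox2 -0.73, Lin28a -0.34, Klf4 -0.26, Sall4 -0.25 and Tfcp2l1 -0.18. None of the 9 ES cell markers measured was called. The summed linear signal of the 8 without Nanog, in which the brightest genes weigh most, ran from 18740 to 25040 in WT and from 19620 to 21730 in I53A. Of the other markers, the endoderm genes Gata4, Sox7, Sox17, Pdgfra and Dab2 and the trophoblast gene Elf5 were not well above background on any array of either group. The endoderm gene Gata6 was above it on 1 array of each group (mean log2 signal 4.78 in WT and 5.03 in I53A). Nes was the only one of 19 called. The summed endoderm markers reached 59.2 to 97.4 in WT and 84.4 to 90.6 in I53A, the trophoblast markers 217.8 to 255.3 and 248.1 to 279.9, the fibroblast markers 444.3 to 545.8 and 515.1 to 685.8, and the neural markers 262.3 to 295.8 and 280.3 to 336.9. The part of other cells in the changes below was not tested.

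With 3 arrays per group few genes were called in I53A, and a gene without a call is not shown to be unchanged. Germline genes such as Fkbp6 and Mael and the 2-cell gene Gm2022 were among those called higher. The stress factor gene Atf4, the growth factor gene Fgf18 and the Y-linked gene Eif2s3y were among those called lower. Of 30170 probes, 71 (0.235%) were called higher in I53A than in WT and 28 (0.0928%) lower, and these belonged to 66 and 26 genes. At 1 probe per gene, the brightest, 63 of 21679 genes (0.291%) were called higher and 24 (0.111%) lower. The genes called higher were dim in WT, with a median log2 signal of 5.68 against 7.60 in I53A, and 20 of the 66 were not well above background on any WT array. The genes called lower had a median of 8.02 in WT and 6.46 in I53A. Among the called probes the median log2FC was 1.95 for those higher and -1.60 for those lower, and 32 and 10 of them passed 4-fold. Higher calls made up 71.7% of all calls, and 54.3% with a normexp background correction (25 higher and 21 lower). That correction adds an offset of 50 to every signal, which compresses dim ones. Under it 29 of the 92 called genes kept their call and the log2FC of 53 was more than 1.5 times smaller, so the folds and bounds of dim genes given below hold only for the processed signal without such an offset. With an unadjusted p below 0.05, 1264 genes (5.83%) were higher and 856 (3.95%) lower, and the median log2FC of all genes was -0.0074. The counts depended on single arrays. Left out were in turn WT 1 (18 probes higher and 6 lower), WT 2 (23 and 6), WT 3 (18 and 8), I53A 1 (35 and 8), I53A 2 (17 and 5), I53A 3 (21 and 10), KO 1 (64 and 27), KO 2 (45 and 17) and KO 3 (51 and 16), and 15 of the 92 called genes kept their call in all 9 of these fits. They were Gm2022, Fkbp6, Mael, Sall2, Slc4a5, Fthl17f, Mlana, En2, Fbp2, Lgals4 and the unnamed gene ENSMUSG00000090987 among those higher, and Eif2s3y, Cpsf4l, Napsa and Fgf18 among those lower. Arrays of WT and I53A with the same replicate number lay side by side on a slide, and with that number as a block 19 probes were called higher and 6 lower. Of the 92 genes 21 then kept their call, which were these 15 and Nes, Lmo2, Tuba3a, Meis1, Wnt6 and Atf4. The arrays lay on 2 slides, with WT 1, WT 2, I53A 1, I53A 2, KO 2 and KO 3 on slide 1 and WT 3, I53A 3 and KO 1 on slide 2. KO 1 lay beside I53A 3, KO 2 beside I53A 1 and KO 3 beside I53A 2. For the KO arrays the block by number therefore did not follow the layout, and the calls it kept do not measure the side-by-side position. With slide as a block 58 probes were called higher and 17 lower, and within slide 1, with 2 arrays per group, 1 and 1. The median difference of the genes called higher was 1.81 on slide 1 and 2.07 on slide 2, and that of the genes called lower was -1.77 and -1.54. These genes were called from the same arrays, so a like direction on the 2 slides is no independent check. Every group occupied a single column of the slides, so column and genotype cannot be told apart.

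**Figure D1:**
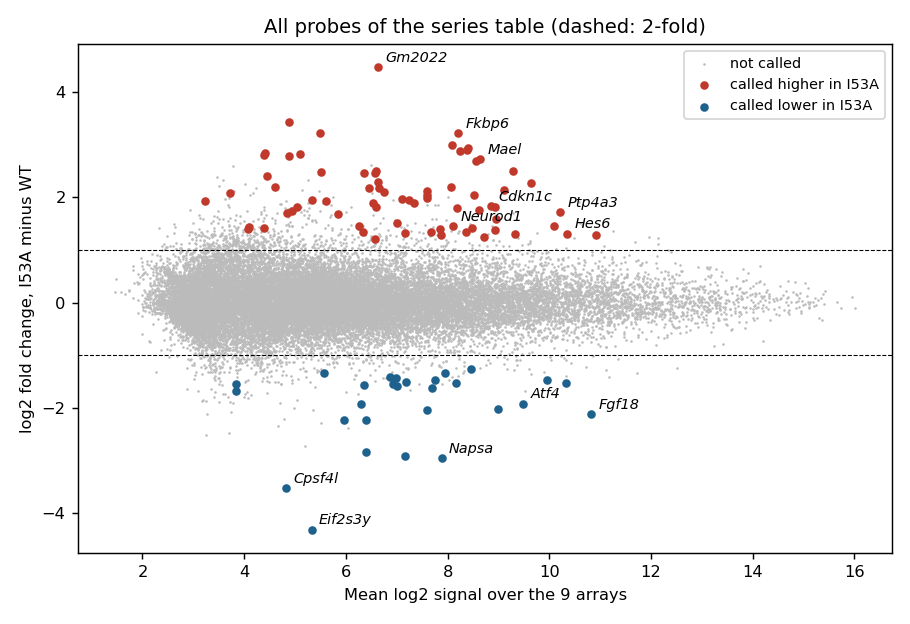
Log2 fold change of I53A against WT for each of the 30170 probes of the series table, plotted against the mean log2 signal over the 9 arrays. Red points are the 71 probes called higher, blue points the 28 called lower, and the dashed lines mark a 2-fold change; the largest increase is Gm2022 at 4.47 and the largest decrease Eif2s3y at -4.31.

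The targeted gene itself did not pass the test. Rnf2 (chromosome 1, 151469398 to 151500991 in GRCm38) had log2 signals of 8.32, 8.27 and 8.47 on the WT and 8.69, 9.10 and 8.59 on the I53A arrays (log2FC 0.44, SE 0.26, adjusted p 0.66). The point mutation leaves the transcript in place, and where this 1 probe lies relative to exon 3 was not established here, so its level does not check the genotype. None of the 32 measured subunits of PRC1 was called, and the 2 with the smallest p-values were Yaf2, an alternative to RYBP in variant PRC1 (log2FC 0.83, SE 0.28, adjusted p 0.357), and the sex comb protein gene Scmh1 (log2FC -1.09, SE 0.50, adjusted p 0.558). Other PRC1 genes with an RT-PCR assay in the study did not pass either, with a log2FC of 0.02 for Ring1, the paralogue of Rnf2, 0.057 for Pcgf1, -0.25 for Pcgf2 and -0.34 for Rybp. Among 12 subunits of PRC2 none was called, although 9 of 12 had a negative log2FC, with a median of -0.28 (-0.08 with normexp correction) and the smallest p-values for Eed, the subunit that reads methylated H3 (-0.70, adjusted p 0.307), and Mtf2 (-0.63, adjusted p 0.519). The catalytic subunit gene Ezh2 stood at -0.18. None of 10 H2A deubiquitinase genes was called, the nearest being Mysm1 (-1.32, adjusted p 0.366) and Asxl1 (-0.47, adjusted p 0.555). Of 18 genes of DNA methylation and H3K9 silencing none was called, and Dnmt3b (0.75, adjusted p 0.271) and Dnmt1 (-0.45, adjusted p 0.574) came closest. With an unadjusted p below 0.05 these lists held 1, 0, 0 and 1 genes higher and 0, 2, 1 and 0 lower, in the order PRC1, PRC2, deubiquitinases and DNA methylation. Of all genes 5.83% were higher and 3.95% lower at that cut.

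A set of 5 genes that act in the germline and in meiosis rose. Of 57 on the list that were measured, these 5 were called higher and 0 lower, beside 0.291% of all genes called higher and 0.111% lower. With an unadjusted p below 0.05, 18 (31.6%) were higher and 1 (1.75%) lower, beside 5.83% and 3.95% of all genes, and the list's median log2FC was 0.33, or 0.17 with a normexp background correction. Since the list was chosen with earlier results of these data known, its shares are a description. Some of its members, such as Mdm4, Taf9b and Trip13, are also used by other cells. The 5 called were Fkbp6, Mael, Syce1, Tuba3a and Tex19.1, and 3 were called without WT 1, WT 2, I53A 2 or I53A 3 and 2 without WT 3.

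The upstream sequences of these 5 genes are shown because germline genes silenced by PRC1 are often described with E-boxes or E2F6-type sites near their start. Each is the 250 bases before the transcription start of RefSeq (GRCm38.p6), read 5′ to 3′ on the gene's strand, with matches to CACGTG (E-box) and to GGCGGGAA or its reverse complement in capitals. They lie at chr5:135350045-135350294 (minus strand) for Fkbp6, chr1:166238745-166238994 (minus) for Mael, chr7:140787855-140788104 (minus) for Syce1, chr6:125286082-125286331 (minus) for Tuba3a and chr11:121145893-121146142 (plus) for Tex19.1.
Fkbp6: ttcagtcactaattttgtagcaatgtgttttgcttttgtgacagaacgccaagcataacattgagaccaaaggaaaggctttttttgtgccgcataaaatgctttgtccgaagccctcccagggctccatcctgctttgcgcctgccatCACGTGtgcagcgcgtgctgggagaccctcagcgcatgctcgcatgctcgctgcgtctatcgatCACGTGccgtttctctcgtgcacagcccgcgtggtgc
Mael: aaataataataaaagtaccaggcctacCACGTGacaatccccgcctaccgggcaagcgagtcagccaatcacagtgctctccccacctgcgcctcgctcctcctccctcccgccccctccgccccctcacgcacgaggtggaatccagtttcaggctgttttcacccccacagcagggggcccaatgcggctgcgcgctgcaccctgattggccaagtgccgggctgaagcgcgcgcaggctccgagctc
Syce1: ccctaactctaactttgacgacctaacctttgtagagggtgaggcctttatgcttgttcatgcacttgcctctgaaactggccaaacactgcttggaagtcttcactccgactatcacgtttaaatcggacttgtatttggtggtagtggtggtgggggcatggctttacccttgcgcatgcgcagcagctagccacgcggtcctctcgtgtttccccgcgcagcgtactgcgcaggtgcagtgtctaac
Tuba3a: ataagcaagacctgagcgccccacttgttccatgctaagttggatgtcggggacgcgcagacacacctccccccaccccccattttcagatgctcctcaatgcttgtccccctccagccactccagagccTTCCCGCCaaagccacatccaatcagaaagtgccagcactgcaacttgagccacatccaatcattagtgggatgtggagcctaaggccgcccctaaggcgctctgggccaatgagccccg
Tex19.1: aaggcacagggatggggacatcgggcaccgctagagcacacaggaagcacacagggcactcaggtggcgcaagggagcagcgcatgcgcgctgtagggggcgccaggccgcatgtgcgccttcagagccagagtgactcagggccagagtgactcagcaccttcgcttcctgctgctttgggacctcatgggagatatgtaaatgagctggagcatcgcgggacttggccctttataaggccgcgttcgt
Fkbp6 held CACGTG at 101 and 37 bases before the start and Mael at 223 bases, counted to the first letter of the match. Tuba3a held the complement of GGCGGGAA at 120 bases, and neither Syce1 nor Tex19.1 held a match. Windows that ran from 250 bases before to 50 after the start were found for 48 of the 66 genes called higher, and 10.4% of them held CACGTG on either strand, against 8.35% of 15298 genes of the table with a window and 32% of 50 genes of the germline list. GGCGGGAA was in 4.17%, 3.20% and 16%, and TCACGTGA, which contains CACGTG, in 0%, 1.32% and 0%. The ratio of observed to expected CpG had a median of 0.47 in the genes called higher and 0.466 in the 21 genes called lower with a window, against 0.628 over all, and of 0.682 in the germline list. These are counts of letters with no test, and they say nothing of binding.

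Fkbp6 encodes an immunophilin needed in meiosis and for piRNA production. Its log2 signals were 5.62, 5.81 and 5.86 on the WT and 8.62, 8.95 and 9.38 on the I53A arrays, a 9.31-fold difference (log2FC 3.22, SE 0.24, adjusted p 0.000827). Mael encodes the piRNA factor Maelstrom, and its signals of 6.48, 6.93 and 6.67 on the WT and 9.31, 9.37 and 9.56 on the I53A arrays gave a 6.59-fold difference (log2FC 2.72, SE 0.23, adjusted p 0.00166). In both genes each I53A array lay more than 2 log2 units above the highest WT array. Syce1, a component of the central element of the synaptonemal complex, had 6.32, 6.15 and 5.68 on the WT and 8.50, 8.73 and 9.69 on the I53A arrays (log2FC 2.93, SE 0.35, adjusted p 0.00884), with I53A 3 highest. Without WT 3 the Syce1 change stood at an adjusted p of 0.0556. Tuba3a, an alpha-tubulin of testis, had 5.87, 6.55 and 5.96 on the WT and 8.23, 8.81 and 9.40 on the I53A arrays (log2FC 2.69, SE 0.39, adjusted p 0.0227). Its second probe gave 2.88, and since Tuba3b is a near-identical copy, the 2 genes cannot be told apart with certainty. The call of Tuba3a ended without WT 1, WT 2, WT 3, I53A 2 or I53A 3, at adjusted p-values up to 0.108. Tex19.1, a germ cell gene that restrains retrotransposons, had the least spread of the 5, with 7.91, 7.93 and 7.89 on the WT and 9.22, 9.24 and 9.18 on the I53A arrays, and rose 2.47-fold (log2FC 1.31, SE 0.19, adjusted p 0.0227). Its call ended without any one of the 6 WT and I53A arrays, at a log2FC between 1.30 and 1.31 and adjusted p-values up to 0.119. In the KO arrays, which are compared with the same WT arrays, the log2FC was 4.10 for Fkbp6, 3.11 for Mael, 4.11 for Syce1, 4.59 for Tuba3a and 2.93 for Tex19.1. The test of KO against I53A passed for Tuba3a and Tex19.1 and not for the other 3 (adjusted p 0.137, 0.602 and 0.177). In bulk RNA a higher level in every cell and a larger share of expressing cells cannot be told apart.

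Several further genes called higher have products of the germline or testis but stand outside the germline list. They were grouped after their values were seen, and no share of all such genes was counted. Fthl17f, a ferritin heavy chain-like gene of the X chromosome, had 4.57, 4.65 and 5.10 on the WT and 7.22, 7.20 and 7.39 on the I53A arrays (log2FC 2.50, SE 0.23, adjusted p 0.00244), and Fthl17-ps1 of the same multicopy family had a log2FC of 2.14. Gm2022, which belongs to a cluster of eIF1A-like genes transcribed in 2-cell embryos, showed the largest increase of all. It lies on chromosome 12, from 87892834 to 87896722 in GRCm38, and its signals were 2.74, 2.94 and 2.51 on the WT and 6.92, 7.03 and 7.65 on the I53A arrays. No WT array was well above background, so that the increase is at least 11.5-fold (log2FC 4.47, SE 0.26, adjusted p 9.43e-05) on the processed signal, where normexp correction gave a log2FC of 1.61 (adjusted p 0.0388), and copies of the cluster may share its probe. Of 17 genes of the 2-cell list Gm2022 was the only one called, beside 0.291% of all genes called higher. With an unadjusted p below 0.05, 7 (41.2%) were higher and 1 (5.88%) lower, beside 5.83% and 3.95% of all genes. The cluster member Gm8300 fell just outside the threshold (log2FC 2.13, adjusted p 0.0503). Meioc, needed for the entry into meiotic prophase (1.96), Gpat2, a testis acyltransferase of the piRNA pathway (1.81), the sperm channel subunit gene Catsperz (1.34) and the homeobox genes Rhox10 (1.46) and Rhox13 (1.42) were called as well. Meioc and Gpat2 were each above background on 1 of 3 WT arrays, and a second probe of Meioc gave 0.24. Each of these 5 calls ended in at least 1 fit with an array left out. With normexp correction none of the 5 was called, nor were Fthl17f (1.04, adjusted p 0.111) and Fthl17-ps1 (1.59, adjusted p 0.192).

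The other leading increases were of unlike function. Fbp1, a fructose bisphosphatase of gluconeogenesis, had 2.65, 2.57 and 2.29 on the WT and 5.65, 5.79 and 6.36 on the I53A arrays and was above background on all 3 I53A arrays and no WT array, an increase of at least 4.77-fold (log2FC 3.43, SE 0.47, adjusted p 0.0191), while normexp correction gave a log2FC of 1.06 (adjusted p 0.707). Its paralogue Fbp2, which lies next to it on chromosome 13, had 5.49, 5.98 and 5.68 on the WT and 7.61, 7.57 and 7.83 on the I53A arrays (log2FC 1.95, SE 0.22, adjusted p 0.00689). Slc4a5, a sodium bicarbonate cotransporter, had 6.44, 6.61 and 7.14 on the WT and 8.97, 9.04 and 9.67 on the I53A arrays (log2FC 2.49, SE 0.27, adjusted p 0.00607), and its second probe gave 2.99. For Slc4a5 and Fbp2 the call held in all 9 fits with an array left out, and for Fbp1 it ended without any one of the 6 WT and I53A arrays (adjusted p up to 0.0993). Mlana, a melanosome protein gene, had 4.83, 4.94 and 4.83 on the WT and 7.14, 7.23 and 7.60 on the I53A arrays (log2FC 2.46, SE 0.21, adjusted p 0.00185). ENSMUSG00000090987 on chromosome 10 had 5.31, 5.99 and 5.49 on the WT and 8.42, 8.23 and 8.82 on the I53A arrays (log2FC 2.90, SE 0.28, adjusted p 0.00251). ENSMUSG00000097581 on chromosome 12 had 3.02, 2.84 and 2.91 on the WT and 4.88, 5.26 and 6.08 on the I53A arrays (log2FC 2.48, SE 0.31, adjusted p 0.0117), with 2 of 3 I53A arrays and no WT array above background, and a change of at least 3.32-fold. Its call ended without WT 1, WT 2, WT 3 or I53A 2 (adjusted p up to 0.0668). With normexp correction it was not called either (0.72, adjusted p 0.36).

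**Figure D2:**
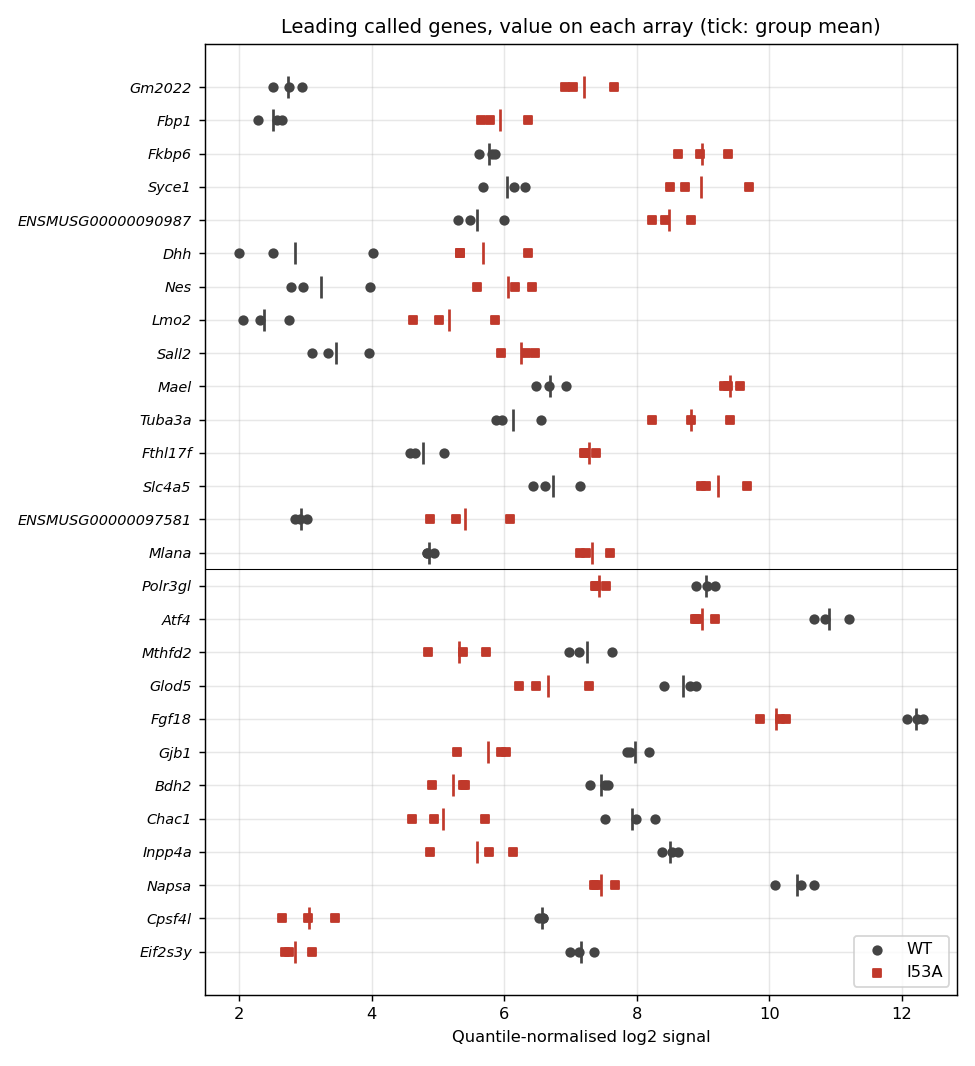
Quantile-normalised log2 signal of the 15 called genes with the largest increase (above the line) and the 12 with the largest decrease (below it) on each of the 3 WT (grey circles) and 3 I53A arrays (red squares), with a tick at each group mean. The WT and I53A points do not overlap for any of the 27 genes, which were chosen for their difference; Mael runs from 6.48 to 6.93 in WT and from 9.31 to 9.56 in I53A.

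Among the developmental regulators, the classical targets of Polycomb silencing, 5 genes outside the Hox clusters rose. None of 37 Hox genes was called, with Hoxc4 (log2FC 0.85, adjusted p 0.465) and Hoxd13 (0.82, adjusted p 0.6) nearest, neither of them above background on more than 1 array of the 2 groups, and 1 Hox gene was higher and 0 lower with an unadjusted p below 0.05. Hoxd10 and Hoxb13, which the study assayed, stood at 0.32 and 0.52, the latter at background throughout. Of 159 other developmental regulators 5 were called higher and 0 lower, beside 0.291% and 0.111% of all genes, and 29 (18.2%) were higher and 1 (0.629%) lower with an unadjusted p below 0.05, beside 5.83% and 3.95%. En2, a homeobox gene of the midbrain and hindbrain, had 6.55, 6.71 and 6.33 on the WT and 8.65, 8.79 and 8.71 on the I53A arrays and rose 4.57-fold (log2FC 2.19, SE 0.20, adjusted p 0.00243). Sall2, a zinc finger factor gene, had 3.09, 3.96 and 3.34 on the WT and 5.96, 6.32 and 6.47 on the I53A arrays, with no WT array above background and an increase of at least 5.74-fold (log2FC 2.79, SE 0.30, adjusted p 0.00549). The homeobox gene Meis1, a partner of Hox proteins, rose at least 5.49-fold (log2FC 2.46, SE 0.38, adjusted p 0.0335). Tal1, a factor of blood formation, rose 3.72-fold (log2FC 1.90, SE 0.25, adjusted p 0.0165) and the proneural factor gene Neurod1 2.73-fold (log2FC 1.45, SE 0.21, adjusted p 0.0222). A second, dimmer probe of Neurod1 gave 0.44. The calls of En2 and Sall2 held with any array left out. With normexp correction En2 (1.515) and Neurod1 (1.285) kept their calls. Sall2 (0.85, adjusted p 0.0122), Meis1 (1.00, adjusted p 0.369) and Tal1 (1.14, adjusted p 0.124) then lost theirs. The calls of Meis1, Tal1 and Neurod1 ended without any one of the 3 WT arrays and without I53A 2 or I53A 3, those of Meis1 also without KO 2 and of Neurod1 also without I53A 1, at adjusted p-values up to 0.136, 0.0858 and 0.113.

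Genes of the neural, blood and other lineages were among the rest that rose. Nes, which encodes the neural progenitor filament nestin, had 2.77, 3.97 and 2.95 on the WT and 5.59, 6.42 and 6.16 on the I53A arrays, an increase of at least 5.01-fold (log2FC 2.82, SE 0.34, adjusted p 0.00884), while the other neural markers Sox1, Pax6 and Tubb3 were not called. Lmo2, a cofactor of Tal1, had 2.31, 2.05 and 2.74 on the WT and 4.63, 5.01 and 5.85 on the I53A arrays and was above background on 2 of 3 I53A arrays and no WT array, an increase of at least 2.80-fold (log2FC 2.80, SE 0.33, adjusted p 0.00884). The Nes call ended without WT 3 or I53A 2 (adjusted p up to 0.0576) and the Lmo2 call without WT 1 or I53A 2 (up to 0.0529). Neither Nes (0.86, adjusted p 0.100) nor Lmo2 (0.50, adjusted p 0.42) was called with normexp correction. Of 33 neural genes 2 were called higher (Nes and Neurod1), and of 26 mesoderm genes 2 (Lmo2 and Tal1), beside 0.291% of all genes. None of 33 endoderm genes was called, with Apoe (-0.74, adjusted p 0.21) and Col4a1 (0.84, adjusted p 0.354) nearest, and none of 24 trophoblast genes, with Tfap2c (-1.13, adjusted p 0.0795) and Ascl2 (1.22, adjusted p 0.276) nearest. None of 24 fibroblast genes or 20 smooth muscle genes was called either. The fibroblast markers Thy1 (1.29, adjusted p 0.0722) and Col1a2 (-0.95, adjusted p 0.109) went in opposite directions. With an unadjusted p below 0.05 the endoderm list held 5 genes higher and 3 lower, the trophoblast list 5 and 1, the fibroblast list 5 and 1, the smooth muscle list 2 and 1, the neural list 8 and 2 and the mesoderm list 5 and 1, beside 5.83% and 3.95% of all genes. Hes6, an inhibitor of HES1 in neurogenesis, the Notch ligand gene Dll3, the retinoic acid-binding protein gene Crabp1 and the proenkephalin gene Penk were called outside the lists, at 1.31, 1.98, 1.75 and 2.28.

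Signalling genes changed in both directions. Of 60 genes of the Wnt, Hedgehog, FGF and BMP pathways 2 were called higher and 2 lower, beside 0.291% and 0.111% of all genes. With an unadjusted p below 0.05, 9 (15%) were higher and 6 (10%) lower, beside 5.83% and 3.95%. Dhh, a Hedgehog ligand gene, had 4.01, 2.50 and 1.99 on the WT and 5.33, 5.34 and 6.35 on the I53A arrays (log2FC 2.84, SE 0.47, adjusted p 0.0438), with 1 of 3 WT arrays above background and a spread of 2 log2 units among the WT arrays. The ligand gene Wnt6 had 4.43, 4.34 and 4.60 on the WT and 6.11, 6.28 and 6.75 on the I53A arrays and rose at least 3.81-fold (log2FC 1.93, SE 0.23, adjusted p 0.00884). Fgf18, an FGF ligand gene, was bright, with 12.08, 12.24 and 12.32 on the WT and 10.17, 10.25 and 9.86 on the I53A arrays, and fell by 2.12 on the log2 scale (log2FC -2.12, SE 0.23, adjusted p 0.00685), and a second probe gave -2.02. Gli1, a transcription factor and a target of Hedgehog signalling, had 7.93, 8.02 and 8.07 on the WT and 6.78, 6.25 and 6.74 on the I53A arrays (log2FC -1.42, SE 0.22, adjusted p 0.0355). With normexp correction Fgf18 (-2.09) kept its call, while Dhh (1.00), Wnt6 (0.86) and Gli1 (-0.79) did not. Fgf18 also kept its call with any array left out. In these fits Dhh kept its call only without WT 1, Gli1 only without KO 1, and Wnt6 lost it without WT 1 or WT 2, at adjusted p-values up to 0.169, 0.149 and 0.0601.

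Among the target genes of p53, a tumour suppressor that responds to stress, 3 rose. They were Ptp4a3, Dcxr and Phlda3 of 30 measured, and 0 were called lower, beside 0.291% and 0.111% of all genes. With scaling to the 75th percentile Ptp4a3 alone was called, and with normexp correction none of these 3 but Pidd1 (1.31, adjusted p 0.0452). With an unadjusted p below 0.05, 14 (46.7%) were higher and 0 lower, beside 5.83% and 3.95% of all genes. This is a description, since the list was chosen with earlier results of these data known. The median log2FC of the list was 0.55, or 0.38 with normexp correction. Taken by array and against the WT mean, that median was 0.66, 0.51 and 0.863 on I53A 1, I53A 2 and I53A 3, and 0.0129, -0.146 and 0.00935 on the WT arrays. Ptp4a3, a phosphatase gene, had 9.51, 9.19 and 9.23 on the WT and 11.18, 11.12 and 10.79 on the I53A arrays (log2FC 1.72, SE 0.23, adjusted p 0.0153). Dcxr, a xylulose reductase gene, had 8.21, 7.88 and 8.18 on the WT and 9.92, 9.97 and 9.83 on the I53A arrays (log2FC 1.82, SE 0.27, adjusted p 0.0257), and its second probe gave 2.04. Phlda3, an inhibitor of AKT, had 7.62, 7.77 and 8.12 on the WT and 9.32, 9.02 and 9.21 on the I53A arrays (log2FC 1.35, SE 0.22, adjusted p 0.0391). These 3 calls ended without any one of the WT arrays, I53A 1 or I53A 2, that of Dcxr also without I53A 3 and that of Phlda3 whichever array was left out, at adjusted p-values up to 0.0893, 0.12 and 0.187. Perp, an effector of p53-dependent apoptosis, missed the threshold (1.17, adjusted p 0.051). Named after their values were seen, Trp53inp1 (1.13, adjusted p 0.0775), Pidd1 (1.59, adjusted p 0.0856), Mdm2, the p53 ubiquitin ligase (0.71, adjusted p 0.589), and Cdkn1a, the cell cycle inhibitor p21 (-0.27, adjusted p 0.776), did not pass, nor did the p53 gene Trp53 (0.13). The KO arrays gave a median of 0.21 for the same list, and a log2FC of 0.99 for Ptp4a3, 0.70 for Dcxr, 0.20 for Phlda3 and -1.34 for Perp. Between the mutant lines Phlda3 (adjusted p 0.0341) and Perp (KO minus I53A -2.52, adjusted p 0.000508) differed, while Ptp4a3 (0.201) and Dcxr (0.0947) did not pass.

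Of 8 inhibitors of cyclin-dependent kinases, 1 was called higher at its brightest probe, beside 0.291% of all genes. Cdkn1c, an imprinted gene that encodes p57, had 8.10, 7.85 and 7.48 on the WT and 9.46, 9.97 and 9.50 on the I53A arrays and rose 3.57-fold (log2FC 1.84, SE 0.26, adjusted p 0.0204). Cdkn2a, which encodes the p16 and ARF proteins and is a known Polycomb target, had 2 probes. The brighter had 9.05, 9.32 and 9.97 on the WT and 10.24, 11.73 and 10.92 on the I53A arrays and did not pass (log2FC 1.52, SE 0.52, adjusted p 0.382). The dimmer had 2.84, 3.12 and 2.89 on the WT and 5.35, 4.73 and 5.34 on the I53A arrays, with no WT array and 2 of 3 I53A arrays above background, and was called at an increase of at least 2.76-fold (log2FC 2.19, SE 0.37, adjusted p 0.0454). Both calls ended without any one of the 6 WT and I53A arrays, that of Cdkn2a also without KO 2 (adjusted p up to 0.101 and 0.179). With normexp correction neither was called, at a log2FC of 1.72 for Cdkn1c (adjusted p 0.0612) and 0.42 for the dimmer Cdkn2a probe (adjusted p 0.667). The brighter Cdkn2a probe was then called higher, so the status of the 2 probes depends on the processing. Of 46 imprinted genes Cdkn1c was the only one called. With an unadjusted p below 0.05, 6 (13%) were higher and 5 (10.9%) lower, beside 5.83% and 3.95% of all genes.

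The gene of the stress factor ATF4 and 3 other genes of its response, Chac1, Mthfd2 and Ddit3, fell. Of 27 genes of the ATF4 and stress response list, 4 were called lower and 0 higher, beside 0.111% of all genes called lower. With an unadjusted p below 0.05, 2 (7.41%) were higher and 6 (22.2%) lower, beside 5.83% and 3.95% of all genes. With scaling to the 75th percentile 2 were called lower, and the list's median was -0.14. Atf4 itself, the transcription factor of the integrated stress response, had 10.68, 10.85 and 11.20 on the WT and 8.88, 8.91 and 9.18 on the I53A arrays and fell by 1.92 on the log2 scale (log2FC -1.92, SE 0.22, adjusted p 0.00816), with a second probe at -1.33. Chac1, which degrades glutathione, had 7.98, 8.27 and 7.52 on the WT and 5.70, 4.60 and 4.94 on the I53A arrays (log2FC -2.84, SE 0.37, adjusted p 0.0153). Mthfd2, a mitochondrial enzyme of folate metabolism, had 7.12, 7.63 and 6.98 on the WT and 4.85, 5.38 and 5.72 on the I53A arrays (log2FC -1.93, SE 0.31, adjusted p 0.0391). In Chac1 and Mthfd2 2 of 3 I53A arrays were above background. Ddit3, which encodes the factor CHOP, had 9.30, 9.43 and 9.29 on the WT and 8.02, 8.12 and 8.13 on the I53A arrays, with a gap of more than 1 log2 unit between the groups (log2FC -1.25, SE 0.20, adjusted p 0.037). Other targets gave -1.04 for Trib3 (adjusted p 0.247) and -1.25 for Nupr1 (adjusted p 0.0918), while the amino acid genes Asns and Psat1 stood at -0.077 and -0.24, all 4 named after their values were seen. Without I53A 2 the Atf4 call ended at an adjusted p of 0.0541. The Chac1 call ended without WT 1, WT 2, I53A 2 or I53A 3 (up to 0.0761), and those of Mthfd2 and Ddit3 held only without KO 1 (up to 0.145 and 0.153). In the KO arrays the log2FC was -2.34 for Atf4, -1.74 for Chac1, -0.91 for Mthfd2 and -1.39 for Ddit3, and no test of KO against I53A passed for them.

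**Figure D3:**
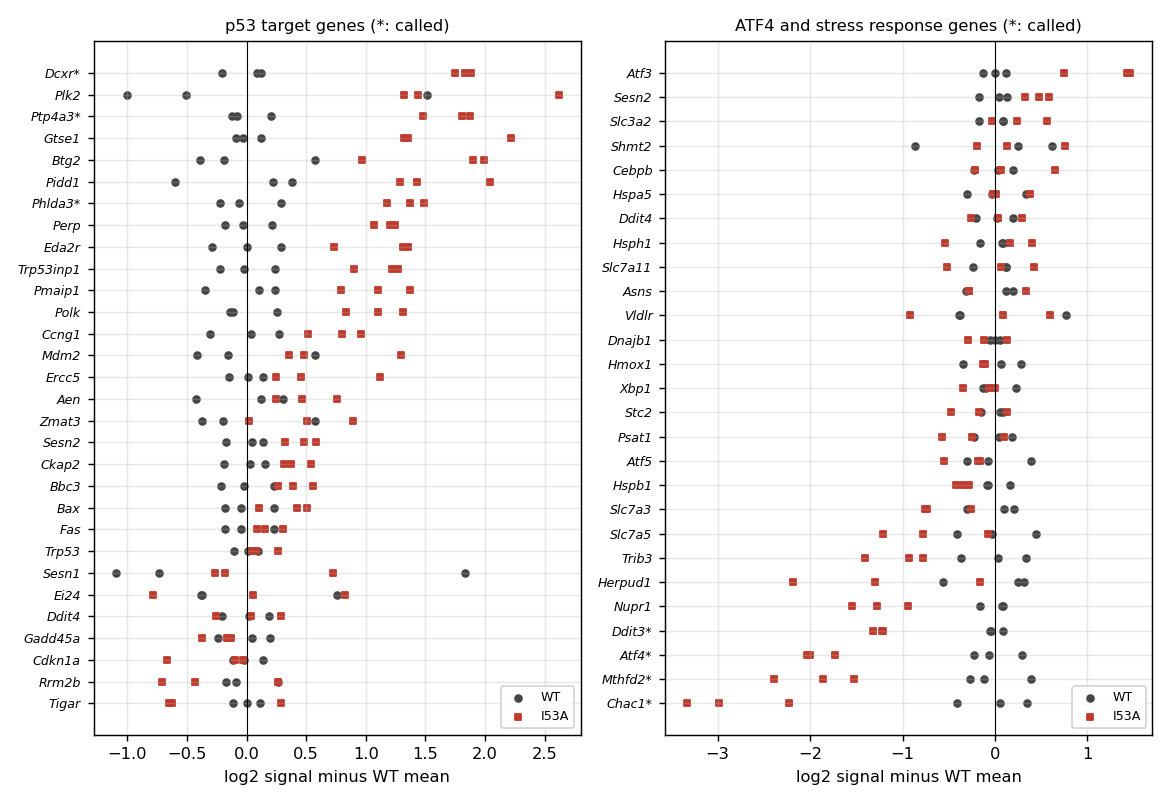
Log2 signal minus the WT mean for each measured gene of the p53 target list (left, 30 genes) and the ATF4 and stress list (right, 27 genes) on the 3 WT (grey circles) and 3 I53A arrays (red squares), 1 probe per gene and called genes marked with a star. Ptp4a3, Dcxr and Phlda3 were called on the left and Atf4, Chac1, Mthfd2 and Ddit3 on the right; the axes of the panels differ.

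The remaining leading decreases were of unlike function. Napsa, an aspartic protease gene of lung and kidney, had 10.09, 10.48 and 10.68 on the WT and 7.38, 7.67 and 7.35 on the I53A arrays and fell by 2.95 on the log2 scale (log2FC -2.95, SE 0.24, adjusted p 0.0012). Cpsf4l, related to a cleavage and polyadenylation factor, had 6.52, 6.59 and 6.58 on the WT and 3.04, 2.65 and 3.44 on the I53A arrays and was not above background on any I53A array, a decrease of at least 7.63-fold (log2FC -3.52, SE 0.35, adjusted p 0.00363), while normexp correction gave a log2FC of -1.01 (adjusted p 0.00437). A second probe of Cpsf4l gave -0.24, so the 2 disagree. Inpp4a, a phosphoinositide phosphatase gene, had 8.37, 8.62 and 8.53 on the WT and 5.76, 4.88 and 6.13 on the I53A arrays (log2FC -2.92, SE 0.50, adjusted p 0.0483) and its second probe gave -0.16. Bdh2, a hydroxybutyrate dehydrogenase gene, had 7.29, 7.53 and 7.57 on the WT and 5.38, 4.91 and 5.41 on the I53A arrays (log2FC -2.23, SE 0.31, adjusted p 0.0204). Gjb1, a connexin gene of the X chromosome, had 7.84, 8.18 and 7.90 on the WT and 5.28, 6.03 and 5.95 on the I53A arrays (log2FC -2.22, SE 0.31, adjusted p 0.0192). The I53A arrays lay below all WT arrays in each of them, and for Inpp4a and Bdh2 2 of 3 I53A arrays were above background. Glod5, a glyoxalase domain gene, had 8.89, 8.41 and 8.80 on the WT and 6.47, 6.22 and 7.27 on the I53A arrays (log2FC -2.05, SE 0.33, adjusted p 0.0362) and Polr3gl, a subunit of RNA polymerase III, 8.89, 9.19 and 9.06 on the WT and 7.53, 7.38 and 7.38 on the I53A arrays (log2FC -1.62, SE 0.25, adjusted p 0.029). The calls of Inpp4a, Bdh2, Gjb1, Glod5 and Polr3gl ended without any one of the WT arrays and without I53A 1 or I53A 2 (adjusted p up to 0.184, 0.107, 0.0911, 0.151 and 0.128), and those of all but Glod5 also without I53A 3, of Glod5 also without KO 2 and of Glod5, Inpp4a and Polr3gl also without KO 3.

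Pluripotency genes were not called in either direction. Of 29 measured, 0 passed the test, with 0 higher and 8 (27.6%) lower with an unadjusted p below 0.05, beside 5.83% and 3.95% of all genes, and the list's median was -0.02. The smallest p-values were those of Prdm14 (log2FC -1.13, SE 0.21, adjusted p 0.0682) and the nuclear receptor gene Nr5a2 (log2FC -1.08, SE 0.23, adjusted p 0.102). Esrrb, another nuclear receptor gene of naive ES cells named after its values were seen, had 11.84, 12.45 and 11.58 on the WT and 10.04, 11.25 and 10.36 on the I53A arrays (log2FC -1.41, SE 0.38, adjusted p 0.213). Pou5f1, the central factor OCT4, had 13.37, 13.63 and 13.34 on the WT and 13.73, 13.61 and 13.68 on the I53A arrays (log2FC 0.23, SE 0.22, adjusted p 0.797). Of 50 interferon-stimulated genes 1 was called higher, beside 0.291% of all genes. With an unadjusted p below 0.05, 10 (20%) were higher and 1 (2%) lower, beside 5.83% and 3.95%. The 1 called was the peptide transporter gene Tap1, with 6.21, 6.40 and 6.13 on the WT and 7.64, 7.75 and 7.92 on the I53A arrays (log2FC 1.52, SE 0.21, adjusted p 0.0204). The Tap1 call ended without any one of the 6 WT and I53A arrays (adjusted p up to 0.104). None of 19 housekeeping genes was called, with 0 higher and 2 (10.5%) lower with an unadjusted p below 0.05, beside 5.83% and 3.95%.

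**Figure D4:**
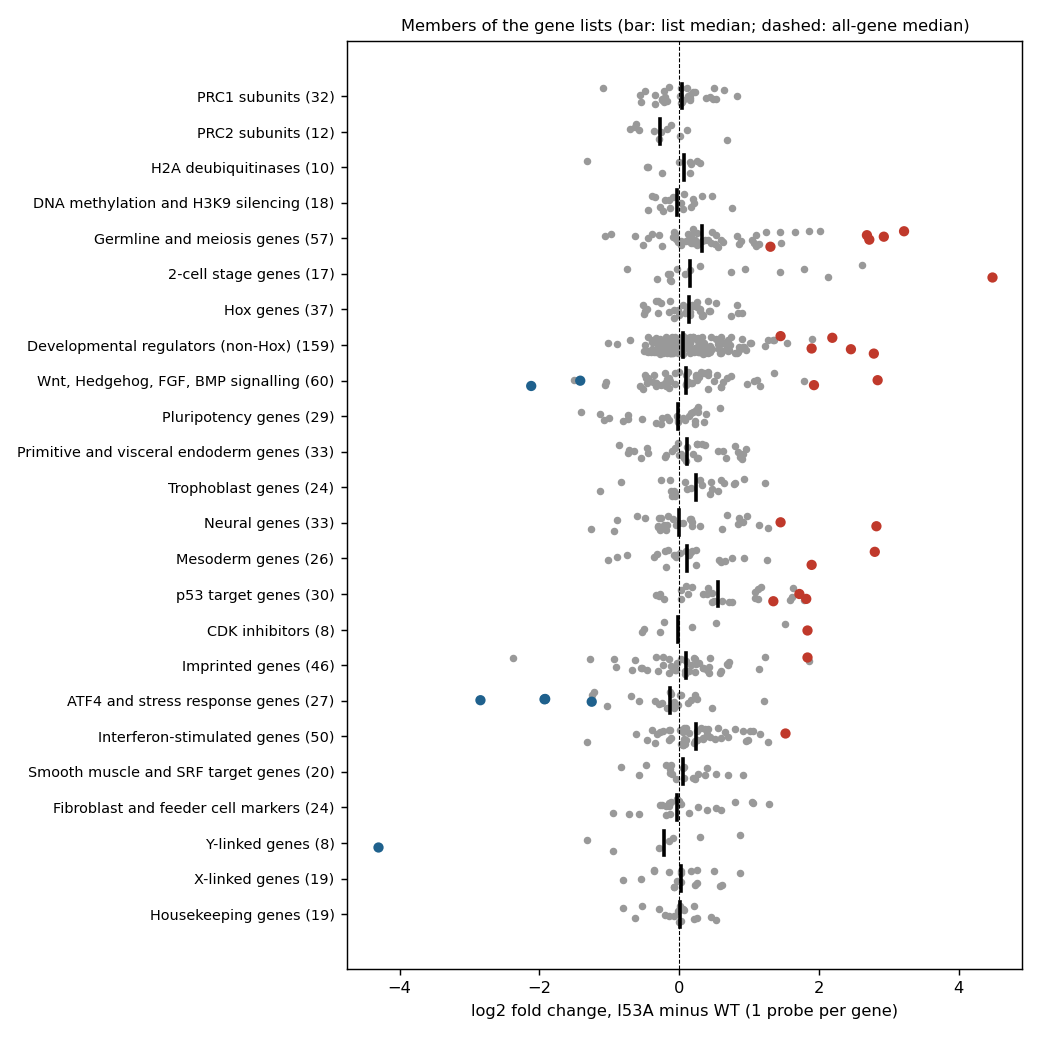
Log2 fold change of I53A against WT for each measured member of 24 gene lists, at 1 probe per gene, with the number of members in brackets, a bar at each list's median and a dashed line at the median of all genes (-0.0074). Red and blue points are members called higher and lower; the medians of the p53 target list (0.55) and the germline list (0.33) lie farthest above the line.

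The largest decrease was that of a gene of the Y chromosome, in samples that are all labelled male. Eif2s3y, which encodes a Y-linked copy of the gamma subunit of translation factor eIF2, had 7.13, 6.99 and 7.35 on the WT and 2.69, 3.10 and 2.74 on the I53A arrays, was above background on every WT array and no I53A array, and was at least 11.5-fold lower on the processed signal (log2FC -4.31, SE 0.22, adjusted p 4.96e-05). The call held under every setting and with any array left out, but with normexp correction the log2FC was -1.69 (adjusted p 0.00207). In KO cells its log2FC against WT was -1.17 (adjusted p 0.015), and KO differed from I53A by 3.15 (adjusted p 0.000187). Of the 24 Y-linked probes 15 were not above background on any WT array and 4 were on all 3. The 3 besides Eif2s3y were Zfy2 (0.30), the testis-determining gene Sry (-0.28) and a probe of ENSMUSG00000069053 (mean log2 signal 8.23 in WT and 8.07 in I53A), none of which was called. In the list of 8 measured Y-linked genes, Ddx3y (-1.32, adjusted p 0.173), Zfy1 (-0.95), Kdm5d (-0.091), Usp9y (-0.15) and Uty (0.86) were above background on at most 2 arrays of a group and were not called. Its X-linked counterpart Eif2s3x stood at 0.031 (adjusted p 0.983), and none of 19 X-linked genes was called. With an unadjusted p below 0.05, 1 of them was higher and 1 lower, beside 5.83% and 3.95% of all genes. Of the genes at 1 probe each, 5 of 911 on the X chromosome were called higher and 4 lower. Chromosome 11 held 9 genes called higher and 2 lower among 1708. Over all genes the shares called were 0.291% and 0.111%.

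The genes that changed in I53A were then compared between the 2 mutant lines, since this asks where a present but ligase-dead protein differs from an absent one. KO and I53A differed at the same threshold for 318 of 21679 genes (1.47%), and for 21 of the 92 genes called in I53A. These 92 were selected by a contrast that shares the I53A arrays with this test, so the count is a description. In 13 of the 21 both changes against WT were positive and the KO change was the larger. They include Gm2022 (KO 7.24), Slc4a5 (5.17), Calcoco2, an autophagy receptor gene (1.28 in I53A and 4.33 in KO), Rhox10 (3.80), Rhox13 (3.10), Lgals4, a galectin gene (1.90 and 3.51), and Meioc (3.41). Napsa was lower in both and more so in KO (-4.64).

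In a smaller group the change was larger in I53A than in the cells without the protein. Neurod1 was 2.73 times its WT level in I53A, and in KO its log2FC was -0.75 (KO minus I53A -2.20, adjusted p 0.00101). Hes6 had 10.04, 10.15 and 10.05 on the WT and 11.25, 11.54 and 11.38 on the I53A arrays (log2FC 1.31, SE 0.21, adjusted p 0.035) and a KO log2FC of -0.49 (KO minus I53A -1.79, adjusted p 0.00271). Igdcc4, an immunoglobulin superfamily gene, had 3.31, 3.14 and 2.63 on the WT and 5.19, 4.64 and 5.48 on the I53A arrays, with 1 of 3 I53A arrays and no WT array above background (log2FC 2.08, SE 0.29, adjusted p 0.0191), and a KO log2FC of 0.021 (KO minus I53A -2.06, adjusted p 0.00718). Serpine2, a serine protease inhibitor gene, had 6.54, 6.58 and 7.03 on the WT and 8.19, 8.06 and 7.88 on the I53A arrays (log2FC 1.33, SE 0.22, adjusted p 0.0446) and a KO log2FC of 0.033 (KO minus I53A -1.30, adjusted p 0.0225). Phlda3, named above, differed by -1.15, and of the genes lower in I53A, Eif2s3y and Cpsf4l (KO -1.69, KO minus I53A 1.83, adjusted p 0.0347) fell less far in KO. The I53A calls of Neurod1, Hes6, Igdcc4 and Serpine2 did not hold in every fit with an array left out (adjusted p up to 0.113, 0.156, 0.0959 and 0.201).

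**Figure D5:**
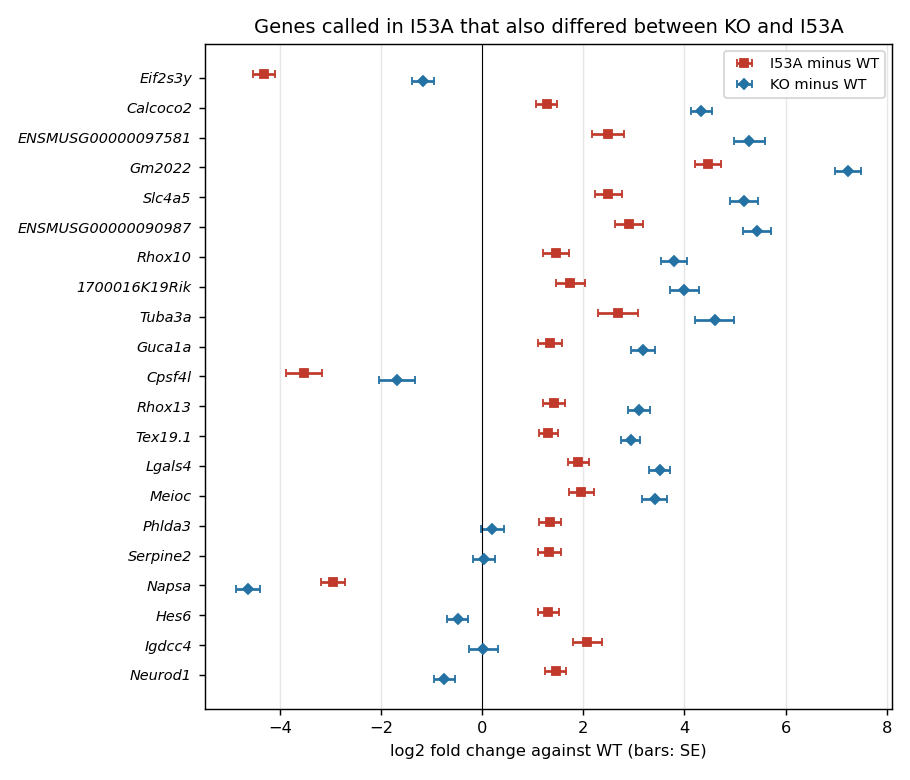
Log2 fold change against WT with its SE for I53A (red squares) and KO (blue diamonds) in the 21 genes called in I53A that also differed between KO and I53A; both contrasts share the 3 WT arrays. Neurod1 lies at 1.45 in I53A and -0.75 in KO, and Gm2022 at 4.47 and 7.24.

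The threshold cut through a run of similar genes. The 2 nearest inside it were Ccl8, a chemokine gene (adjusted p 0.0495), and Prol1 (log2FC 1.40, adjusted p 0.0495), and the 2 nearest outside were Gm8300 (2.13, adjusted p 0.0503) and Fndc5, a myokine precursor gene (1.72, adjusted p 0.0507). Ccl8 was at background on every WT and I53A array, as were Cyp27b1, Fcgr4, Gm11437 and ENSMUSG00000087228 among the calls, and no fold is given for them. The other genes called higher were Epx (2.40), the growth arrest gene Gadd45g (2.27), ENSMUSG00000046774 (2.12), the glutathione peroxidase genes Gpx3 (2.18) and Gpx6 (1.70), Dgat2 (2.11), Ccno (2.04), Slc25a34 (1.95), Pid1 (1.82), Cd34 (1.79), 1700016K19Rik (1.74), Vrtn (1.69), Tmem88 (1.59), the cardiac myosin gene Myh6 (1.46), Rhod (1.41), Slc43a3 (1.37), Guca1a (1.34), Creb3l1 (1.29), Bcas1 (1.25) and R3hdml (1.22). The other genes called lower were Lrrc34 (-1.58), the merlin gene Nf2 (-1.56), Renbp (-1.53), Pga5 (-1.53), Ubxn11 (-1.50), Phf11d (-1.47), Pcsk1n (-1.46), Calml4 (-1.44), the skeletal actin gene Acta1 (-1.34) and Mras (-1.34). Their calls each ended in at least 1 fit with an array left out. Second probes that were not called gave 0.053 for Myh6, -0.61 for Nf2 and 0.97 for Cd34, and the other 2 probes of Mras gave -0.40 and 0.71.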

How the data were processed

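The members of the comparison and the gene lists were chosen with earlier results of these data known. Cy3-labelled cRNA of each sample was hybridised to a 1-colour Agilent SurePrint mouse array, and the authors extracted the deposited spot intensity with Agilent Feature Extraction 11.5.1.1. Their deposited series table holds quantile-normalised log2 values of 30170 probes that match 1 gene in mm10. Its other columns (group means, fold changes, p-values and direction flags) were not used. Here log2 of the background-subtracted processed signal was recomputed from the scanner files: spots flagged as outliers were dropped, spots of 1 probe averaged and the 9 arrays quantile-normalised over 55681 probes without controls. The deposited columns correlated with these arrays at 0.99989 or more. limma 3.58.1 in R 4.3.3 fitted 1 mean per group (6 residual degrees of freedom), and Benjamini-Hochberg adjustment ran over all 30170 probes. The test was checked on simulated data of 30088 probes with normal noise, where 89% of the changed probes were called and 16 calls were false. Changes were planted only in probes with a mean log2 signal above 7, so the check does not cover dim genes.

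Probes were named by matching RefSeq accessions (GRCm38.p6): 26839 had 1 symbol, 97 several and 3234 none, which keep their Ensembl identifier. Gene counts and lists used each gene's brightest probe. Per-array values were given for the 15 largest increases and 12 largest decreases among called genes above background in at least 1 group and for called members of lists. The 2 list members with the smallest p-values were named where none was called, except for the fibroblast, smooth muscle, X-linked and housekeeping lists. Where no array of a group was well above background, a fold is a lower bound: the brighter group's mean against the dimmer group's mean of, on each array, the lowest signal of a probe well above background or the probe's own signal if higher. Alternatives were scaling to the 75th percentile, normexp (offset 50, on median spot and background intensity, since no mean signal was given), the deposited values, dim probes left out, only WT and I53A arrays, slide or replicate blocks, outlier spots kept and each array left out.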

Additional observations from a re-analysis of the deposited data

Results flagged for a closer look

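For 21 of the 92 genes called in I53A, the difference of the mutant line from WT was not the same in the 2 mutant lines, by the limma test of KO against I53A with p-values adjusted over all probes. All 21 are given as log2 values of KO minus I53A. Both mutant lines are compared with the same 3 WT arrays.

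The KO value was higher for Eif2s3y (3.15), Calcoco2 (3.06), ENSMUSG00000097581 (2.80), Gm2022 (2.76), Slc4a5 (2.68), ENSMUSG00000090987 (2.54), Rhox10 (2.34), 1700016K19Rik (2.26), Tuba3a (1.91), Guca1a (1.84), Cpsf4l (1.83), Rhox13 (1.67), Tex19.1 (1.63), Lgals4 (1.61) and Meioc (1.45). It was lower for Phlda3 (-1.15), Serpine2 (-1.30), Napsa (-1.69), Hes6 (-1.79), Igdcc4 (-2.06) and Neurod1 (-2.20). Gm2022, Tuba3a, Rhox10 and Rhox13 have close copies in the genome, and their probes may share signal with them. No cause of these differences was tested.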

How the results depend on the processing

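Against 71 probes higher and 28 lower, scaling to the 75th percentile gave 35 and 9, normexp 25 and 21, the deposited values 72 and 29, dim probes left out 182 and 84 of 15579 tested, only the 6 WT and I53A arrays 33 and 11, slide as a block 58 and 17, slide 1 alone 1 and 1 (1256 and 1181 with an unadjusted p below 0.05), and outlier spots kept 64 and 28. Leaving out 1 array gave 17 to 64 higher and 5 to 27 lower. The 5 germline genes called became 3, 3, 5, 13, 4, 7, 0 and 5 in that order (within slide 1, 16 higher and 3 lower with an unadjusted p below 0.05 in limma) and 2 to 5 without 1 array. Dim probes were those not well above background on all 3 arrays of any group. A probe could thus be kept through I53A or KO alone, so the filter depends on the contrast and the 182, 84 and 13 are no cleaner counts. The 21 genes that differed between KO and I53A became 11 with normexp and 7 within slide 1, and 16 to 20 without 1 array; with only 6 arrays there is no such test, and these alternatives were chosen after seeing the data. The causes were not tested. All 92 called genes kept their direction wherever they were tested, which is no independent check, since these fits reuse the arrays that gave the calls. Of the 92, 10 kept their call under every setting but slide 1: Gm2022, Fkbp6, Mael, Slc4a5, En2, Fbp2, Fgf18, Napsa, Cpsf4l and Eif2s3y.

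With the replicate number as a block, the replicate block gave 19 probes higher and 6 lower, 3 germline genes and 17 genes that differed between KO and I53A. Deviations of same-numbered WT and I53A arrays, which also share a slide, correlated at 0.222, 0.00325 and 0.123, with I53A 2 nearest to WT 3 (0.0751), over all tested probes. Over probes with a mean log2 signal above 7 they correlated at 0.385, 0.211 and 0.261, each array best with its own number, while the other 6 pairs were below 0. Deviations within a group sum to 0, so positive same-number values push the other pairs down, and those 6 add no separate evidence. The check over all probes did not pass for every pair, so the block was not taken as the main design, but whether the numbers pair the samples is not settled. The block kept 21 of the 92 called genes, and calls such as those of Syce1, Fbp1, Tex19.1, Chac1, Gjb1 and Bdh2 ended. With 45.4% to 57.5% of tested probes well above background on a WT or I53A array, many dim genes have only a bound in a group.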
